A study of Mus musculus with 11 samples.

Results

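Spi1, Irf8, Sall1, Mef2a, Mef2c, Runx1 and Cebpa are transcription factor genes that set the identity of microglia, the resident macrophages of the brain, or of macrophages in general. They were taken by symbol as 7 of the 16934 genes in the deposited count table, and all 7 were found there. The series measured RNA of primary microglia from C57BL/6 pups of postnatal day 0 to 3, passage 0, kept for 7 to 10 days in DMEM with 10% fetal calf serum. In the fibril co-culture (4 libraries) the microglia spent 6 h with primary cortical neurons of 14 days in vitro that had been loaded with fibrils of α-synuclein carrying the dye Atto488 (0.1 µM, 16 h) and had then been washed. In the untreated co-culture (3 libraries) the same kind of neurons carried no fibrils, and the remaining 4 libraries came from microglia alone. The labels name no genetic change in any group. They do not say how microglia were separated from neurons, or whether libraries with the same treatment were separate cultures. The p-values below therefore measure the spread between these libraries, which may be technical.

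PU.1, the product of Spi1, is an ETS-family factor that opens the enhancers of the myeloid lineage, and IRF8 binds DNA beside it at composite sites. RUNX1 and C/EBPα act earlier in blood development and again in macrophages, C/EBPα as a driver of the myeloid fate and RUNX1 with its non-DNA-binding partner CBFβ. The MEF2 factors and SALL1 belong to the layer that separates microglia from other macrophages: MEF2 motifs are frequent in microglial enhancers, and SALL1, a zinc-finger repressor, is used as a microglia-specific gene and depends on TGF-β signalling. Both MEF2 genes are also active in neurons.

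In mouse build GRCm38 (mm10) of RefSeq, Spi1 lies at chr2:91082374-91115759 on the plus strand and Irf8 at chr8:120736358-120756694 on the plus strand. Sall1 lies at chr8:89027242-89044162 on the minus strand, Runx1 at chr16:92601466-92826074 on the minus strand, and Mef2c at chr13:83504017-83667079 on the plus strand. Mef2a, at chr7:67231163-67376456 on the minus strand, and Cebpa, at chr7:35119293-35121928 on the plus strand, share a chromosome.

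The 250 bases before an annotated start are printed for the 3 genes whose library ranges separated most often between co-culture and microglia alone, so that the myeloid motifs near their starts can be read. The letters are those of the RefSeq promoter table for GRCm38, 5′ to 3′ on the gene's own strand. Capitals mark GAGGAA, the core bound by PU.1 and other ETS factors, and TTGCG, a C/EBP half-site. The last capital T of Mef2a opens a MEF2 match, described after the sequences. The Mef2a stretch is chr7:67372859-67373108, minus strand. The Mef2c stretch is chr13:83503784-83504033, plus strand, before one of 3 annotated starts. The Cebpa stretch is chr7:35119043-35119292, plus strand.
Mef2a: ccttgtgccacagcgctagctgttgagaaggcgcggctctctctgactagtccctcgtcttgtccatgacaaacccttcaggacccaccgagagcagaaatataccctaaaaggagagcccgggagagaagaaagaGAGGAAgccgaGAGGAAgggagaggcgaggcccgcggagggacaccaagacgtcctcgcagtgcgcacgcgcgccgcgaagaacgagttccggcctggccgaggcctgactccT
Mef2c: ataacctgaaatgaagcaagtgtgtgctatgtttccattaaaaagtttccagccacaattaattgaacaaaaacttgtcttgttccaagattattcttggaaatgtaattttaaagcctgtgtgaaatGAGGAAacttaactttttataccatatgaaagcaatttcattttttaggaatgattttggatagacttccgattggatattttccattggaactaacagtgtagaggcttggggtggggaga
Cebpa: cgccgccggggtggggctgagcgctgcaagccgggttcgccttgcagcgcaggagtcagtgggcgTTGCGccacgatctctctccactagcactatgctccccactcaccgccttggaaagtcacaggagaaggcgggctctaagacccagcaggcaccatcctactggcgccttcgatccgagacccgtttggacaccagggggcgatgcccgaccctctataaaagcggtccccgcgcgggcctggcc

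Motifs were searched on both strands in the 250 bases before and 50 after each start, in 32851 promoters. The windows read belong to 6 of the 7 genes, Spi1 not among them. Mef2a held GAGGAA at −114 and again at −103, counted from the start, and Mef2c held it once, at −122. GAGGAA occurred in 28.3% of all promoters, so its presence is common. Mef2a also held TAAAAATA, the MEF2 core, at −1 to 7, across its own start, and 2.72% of promoters held that run. Cebpa held TTGCG at −185, a run found in 17.4% of promoters. A second Mef2c start held GAGGAA at −186. Of the Runx1 windows, 1 held GAGGAA at −46 on the reverse strand, and the other held TGTGGT, the RUNX core, in reverse at 29 and 37, a run found in 16.8% of promoters. The full C/EBP palindrome TTGCGCAA (0.183% of promoters) and the IRF repeat, 2 GAAA runs 2 bases apart (3.44%), were not in the windows read. These are matches of letters and not measured binding sites.

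Libraries held 8253070 to 14844071 counts in the fibril co-culture, 10925771 to 16802451 in the untreated co-culture and 10700940 to 14541179 in microglia alone, and 9157 to 11739 genes had a count in a library. Levels are CPM, the count of a gene relative to the whole library, scaled by edgeR's TMM factors, which correct for composition. The kit reads 3′ ends, so CPM of different genes were not compared with one another. The summed level of 19 microglia and macrophage markers was 22203 ± 2576 CPM in the fibril co-culture, 23604 ± 2067 CPM in the untreated co-culture and 19176 ± 948 CPM in microglia alone (SD, n = 4, 3 and 4), with all 19 detected in each group. In these bulk libraries, fewer microglia and less RNA per microglia cannot be told apart.

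Spi1 and Irf8, the general myeloid pair, had overlapping ranges across the 3 cultures and did not pass the test in any comparison. Spi1 had 412, 316, 379 and 374 CPM in the fibril co-culture, against 273, 349 and 269 CPM in the untreated co-culture and 290, 345, 266 and 543 CPM in microglia alone. The 3 ranges overlapped, and the highest value of all stood in 1 library of microglia alone. Group means were 370 ± 40.2 CPM with fibril-loaded neurons, 297 ± 44.99 CPM with untreated neurons and 361 ± 126 CPM alone (SD, n = 4, 3 and 4). The log2 fold change of Spi1 was 0.32 ± 0.29 (SE) for fibril against untreated co-culture, with a 95% interval of −0.29 to 0.92 and an edgeR adjusted p of 1. The exact two-sided permutation p of that comparison was 0.0857. The log2 fold change was 0.03 ± 0.27 for the fibril co-culture against microglia alone (edgeR adjusted p = 1). For the untreated co-culture against microglia alone it was −0.28 ± 0.29 (95% interval −0.88 to 0.32, edgeR adjusted p = 0.908).

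Irf8 had 628, 473, 482 and 424 CPM in the fibril co-culture, against 407, 643 and 405 CPM in the untreated co-culture and 453, 366, 526 and 600 CPM in microglia alone. The ranges nearly coincided. Its means of 502 ± 88.0 CPM with fibril-loaded neurons, 485 ± 137 CPM with untreated neurons and 486 ± 100.1 CPM alone (SD, n = 4, 3 and 4) gave log2 fold changes within 0.05 of 0 in each comparison. The 95% interval for fibril against untreated co-culture was −0.53 to 0.63. Spi1 and Irf8 had a Pearson correlation of 0.51 across the 11 libraries on the log2(CPM + 1) scale, libraries that share depth and composition effects and treatment groups.

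Runx1 was lowest with fibril-loaded neurons, but the difference did not pass the test. It had 96.3, 70.8, 111 and 109.7 CPM in the fibril co-culture, against 126, 123 and 128 CPM in the untreated co-culture and 112, 111, 188 and 168 CPM in microglia alone. The fibril libraries all lay below the untreated ones, which were within a few CPM of each other. The range of microglia alone took in the untreated libraries but only the highest fibril library, and the other fibril libraries lay below it. Means were 97.1 ± 18.8 CPM with fibril-loaded neurons, 126 ± 2.72 CPM with untreated neurons and 145 ± 39.2 CPM alone (SD, n = 4, 3 and 4). The log2 fold change was −0.37 ± 0.32 against the untreated co-culture (95% interval −1.03 to 0.29, edgeR adjusted p = 1; exact two-sided permutation p = 0.0857). It was −0.58 ± 0.30 against microglia alone (edgeR adjusted p = 0.685, exact two-sided permutation p = 0.0571). Cbfb, the gene of its partner, averaged 109 ± 27.6 CPM in the fibril co-culture, 145 ± 39.0 CPM in the untreated co-culture and 96.8 ± 48.2 CPM in microglia alone (SD, n = 4, 3 and 4), with edgeR adjusted p of 0.729 or more throughout.

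Cebpa was higher in each co-culture library than in each library of microglia alone. It had 113, 213, 150.2 and 78.4 CPM in the fibril co-culture, against 142, 233 and 77.3 CPM in the untreated co-culture and 58.7, 61.6, 62.9 and 56.4 CPM in microglia alone. Microglia alone were tightly grouped and the co-cultures widely spread, with 1 library of each co-culture close to microglia alone. The means were 139 ± 57.5 CPM with fibril-loaded neurons, 151 ± 78.2 CPM with untreated neurons and 59.9 ± 2.94 CPM alone (SD, n = 4, 3 and 4). The log2 fold change was 1.33 ± 0.39 (SE) for untreated co-culture against microglia alone, with a 95% interval of 0.53 to 2.13. Its unadjusted p was 0.00233 and its edgeR adjusted p 0.149, so it did not pass the threshold of 0.05. For the fibril co-culture against microglia alone it was 1.21 ± 0.36 (unadjusted p = 0.00314, edgeR adjusted p = 0.220), and the exact two-sided permutation p was 0.0286 in each of these comparisons, the smallest that their library numbers allow. Fibril against untreated co-culture gave −0.12 ± 0.39 (95% interval −0.92 to 0.68).

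Mef2a followed the same order as Cebpa. It had 108, 186, 174 and 148 CPM in the fibril co-culture, against 140.1, 175 and 235 CPM in the untreated co-culture and 94.4, 55.8, 114 and 59.4 CPM in microglia alone. The untreated co-culture lay wholly above microglia alone, and the fibril co-culture overlapped it through its lowest library. Means were 154 ± 34.5 CPM with fibril-loaded neurons, 184 ± 48.2 CPM with untreated neurons and 81.0 ± 28.2 CPM alone (SD, n = 4, 3 and 4). The log2 fold change was 1.18 ± 0.34 for untreated co-culture against microglia alone (95% interval 0.48 to 1.89, unadjusted p = 0.0022, edgeR adjusted p = 0.144). It was 0.93 ± 0.32 for fibril co-culture against microglia alone (unadjusted p = 0.00835, edgeR adjusted p = 0.375) and −0.25 ± 0.34 for fibril against untreated co-culture. The exact two-sided permutation p of Mef2a was 0.0571 for each co-culture against microglia alone.

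The 3′ end of Mef2a is overlapped on the other strand by Lysmd4, over 76168 bases that include exons. The use of strand in counting is not given in the sources used here, so reads of these genes cannot be told apart with certainty. Lysmd4 averaged 15.7 ± 6.29 CPM in the fibril co-culture, 18.3 ± 10.6 CPM in the untreated co-culture and 12.7 ± 7.81 CPM in microglia alone (SD, n = 4, 3 and 4), and its edgeR adjusted p was 0.998 or above in each comparison.

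Mef2c ran the opposite way to Mef2a, with its highest values in microglia alone. It had 241, 272, 330.05 and 188 CPM in the fibril co-culture, against 244, 203 and 175 CPM in the untreated co-culture and 518, 403, 339 and 379 CPM in microglia alone. Every co-culture library lay below every library of microglia alone. The means were 258 ± 59.2 CPM with fibril-loaded neurons, 207 ± 35.1 CPM with untreated neurons and 410 ± 76.6 CPM alone (SD, n = 4, 3 and 4). Its log2 fold change was −0.98 ± 0.29 for untreated co-culture against microglia alone, with a 95% interval of −1.58 to −0.38, an unadjusted p of 0.00268 and an edgeR adjusted p of 0.155. For fibril co-culture against microglia alone it was −0.67 ± 0.26 (unadjusted p = 0.0185, edgeR adjusted p = 0.494), and the exact two-sided permutation p was again 0.0286 in both. Fibril against untreated co-culture gave 0.31 ± 0.28 (95% interval −0.28 to 0.90).

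**Figure D1:**
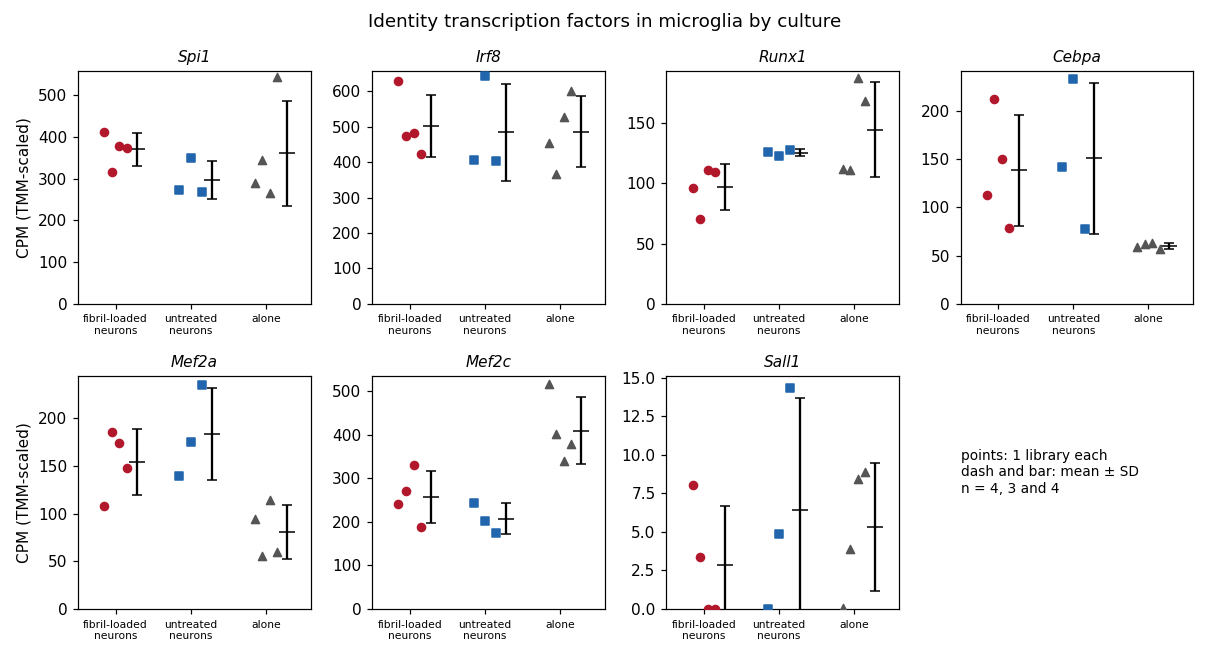
Levels of the 7 genes in TMM-scaled CPM, 1 panel a gene and 1 point a library, for microglia with fibril-loaded neurons (n = 4), with untreated neurons (n = 3) and alone (n = 4); dash and bar are the mean ± SD. Cebpa and Mef2a stand higher, and Mef2c lower, in the co-cultures than in microglia alone, with 1 fibril library of Mef2a inside the range of microglia alone, while Spi1 and Irf8 overlap throughout.

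The contrast within the MEF2 pair was also read as the ratio of Mef2a to Mef2c counts, which does not depend on how libraries are scaled. The ratio was 0.448, 0.684, 0.528 and 0.785 in the fibril co-culture, against 0.573, 0.865 and 1.35 in the untreated co-culture and 0.182, 0.139, 0.336 and 0.157 in microglia alone. All 7 co-culture ratios lay above all 4 ratios of microglia alone, while the co-cultures overlapped each other. Means were 0.611 ± 0.152 with fibril-loaded neurons, 0.928 ± 0.391 with untreated neurons and 0.203 ± 0.0903 alone (SD, n = 4, 3 and 4). The ratio was chosen after the levels had been seen and was not tested. It shows that the genes differed unequally between cultures, and not which of them changed. Their Pearson correlation over the 11 libraries was −0.71, and that of Mef2a with Cebpa was 0.64.

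**Figure D2:**
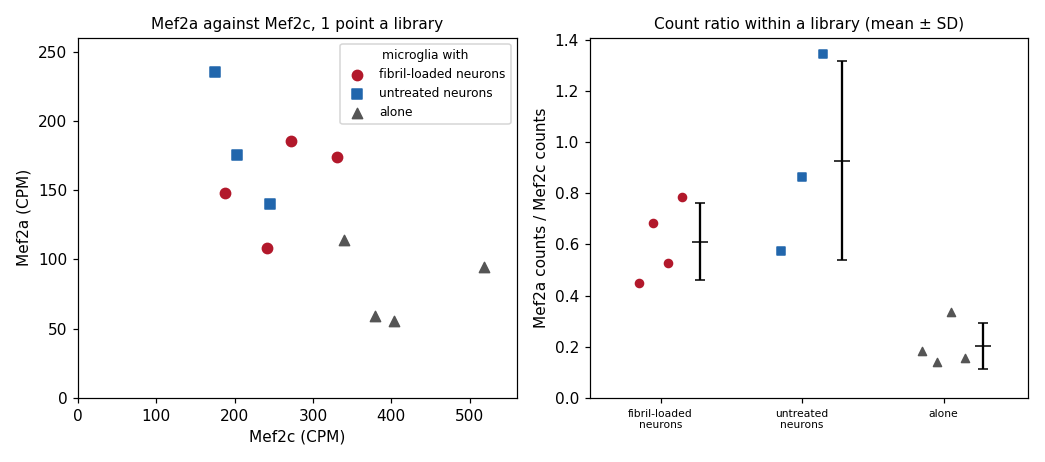
Left, CPM of Mef2a against CPM of Mef2c, 1 point a library; right, the ratio of Mef2a counts to Mef2c counts in each library by culture, with mean ± SD (n = 4, 3 and 4). Ratios run from 0.448 to 1.35 in the 7 co-culture libraries and from 0.139 to 0.336 in the 4 libraries of microglia alone.

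Neuronal RNA moved with this pattern. The summed level of 24 neuronal markers was 49.8 ± 15.9 CPM in the fibril co-culture (31.1 to 69.9), 45.9 ± 11.9 CPM in the untreated co-culture (36.2 to 59.1) and 181 ± 45.9 CPM in microglia alone (131 to 238; SD, n = 4, 3 and 4). It was thus highest in the libraries labelled as microglia without neurons, where Mef2c was also highest and Mef2a lowest. Dcx, of immature neurons, averaged 2.59 CPM in the fibril co-culture, 0.0403 CPM in the untreated co-culture and 48.6 CPM in microglia alone, and Snap25, Slc17a6 and Neurod6 had no count in any library. Of the 24 markers, 7 had no count in the fibril co-culture, 13 in the untreated co-culture and 5 in microglia alone. The part of neuronal RNA in the Mef2a and Mef2c levels was not tested. Summed markers of border-associated macrophages were 1570 ± 306 CPM in the fibril co-culture, 1776 ± 138 CPM in the untreated co-culture and 1411 ± 201 CPM in microglia alone, with Lyve1 at no count.

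Sall1 was counted in some libraries of each culture and at 0 or 1 in others, and gave no usable comparison. It had 116, 29, 0 and 0 counts in the fibril co-culture, against 0, 54 and 242 counts in the untreated co-culture and 1, 39, 95 and 106 counts in microglia alone. Counts were 29 to 242 in 7 of the 11 libraries and 0 or 1 in the other 4, with both kinds in each group. In the libraries at 0, a limit of 3 counts allowed up to 0.282 and 0.199 CPM in the fibril co-culture and 0.181 CPM in the untreated co-culture, counting error only. The means were 2.86 ± 3.81 CPM with fibril-loaded neurons, 6.39 ± 7.30 CPM with untreated neurons and 5.31 ± 4.15 CPM alone (SD, n = 4, 3 and 4). The biological coefficient of variation that edgeR fitted was 2.03 for Sall1, against 0.308 to 0.392 for the other 6 genes, and the 95% interval for fibril against untreated co-culture ran from −6.18 to 3.87 on the log2 scale.

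By the edgeR quasi-likelihood test with Benjamini-Hochberg adjustment over 11276 genes, 0 of the 7 genes passed an adjusted p of 0.05 in any comparison. For fibril against untreated co-culture, 0 of 7 had an unadjusted p under 0.05, against 3.95% of all genes, and DESeq2 called 0 of the 7, against 1.70%. The ranges were apart for 1 of 7, Runx1, against 4.68% of all genes. No gene at all passed adjustment in that comparison (0% called; 445 genes at an unadjusted p under 0.05; 187 called by DESeq2). For Spi1, Irf8, Mef2a, Mef2c and Cebpa the unadjusted 95% intervals lay inside a log2 change of 1 either way.

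For untreated co-culture against microglia alone, 3 of 7 had an unadjusted p under 0.05 and 3 of 7 had ranges apart, each against 10.3% of all genes, while 0.639% of genes passed adjustment. For fibril co-culture against microglia alone the counts were 3 of 7 at an unadjusted p under 0.05 (8.14% of all genes) and 2 of 7 with ranges apart (5.62%), and 0.319% of genes passed adjustment. These comparisons share the 4 libraries of microglia alone, so their likeness for Cebpa, Mef2a and Mef2c is no second observation. The median log2 fold change of the 7 genes was −0.12, −0.00 and 0.03 for fibril against untreated co-culture, untreated co-culture against microglia alone and fibril co-culture against microglia alone, beside 0, −0.05 and −0.04 for all genes.

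**Figure D3:**
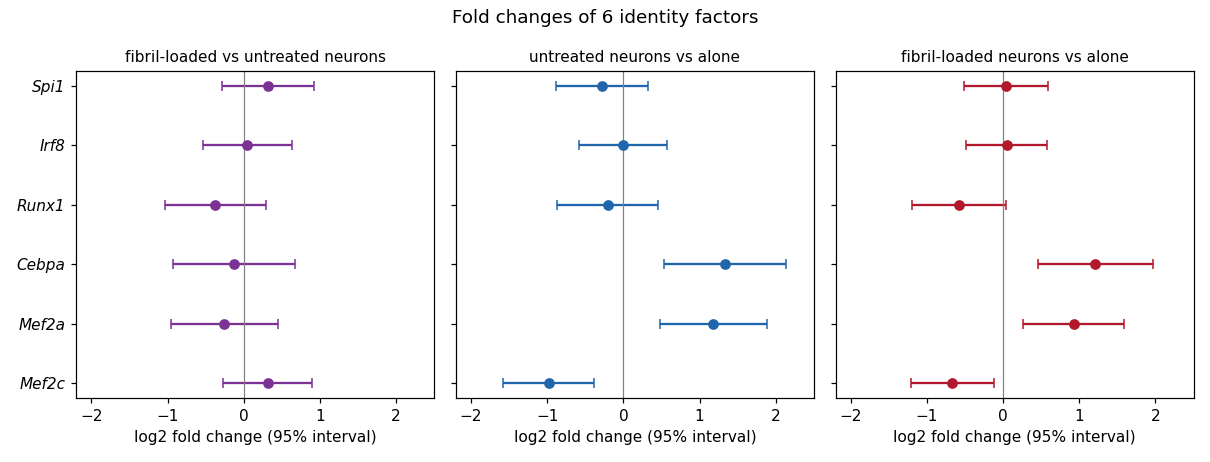
Log2 fold changes with unadjusted 95% intervals from the edgeR fit for 6 of the genes (Sall1, with intervals too wide for the axis, is left out), 1 panel a comparison. Intervals of Cebpa, Mef2a and Mef2c lie off 0 against microglia alone in both co-cultures, with adjusted p between 0.144 and 0.494, and all 6 intervals cover 0 for fibril against untreated co-culture.

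The call for Cebpa, Mef2a and Mef2c in untreated co-culture against microglia alone turned on the test. DESeq2, which called 4.25% of genes, gave Mef2a (log2 fold change 1.18, adjusted p = 0.0377) and Cebpa (1.32, adjusted p = 0.0499) higher and Mef2c lower (−0.99, adjusted p = 0.0107). In edgeR without a filter on low counts Cebpa passed (1.32, adjusted p = 0.0402; 1.66% of genes called), and with scaling to microglia marker counts Mef2c passed (−1.28, adjusted p = 0.0393; 0.754% called). That scaling moved the median of all genes to −0.35, so Mef2c stood at −0.93 relative to it. For fibril co-culture against microglia alone DESeq2 called 2.14% of genes and 0 of the 7, and no other setting run called any of the 7 in a comparison with the fibril co-culture.

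The genes whose levels ran most like each factor over the 11 libraries were found by Pearson correlation of log2(CPM + 1) among 5449 genes, those counted in each library and averaging 20 CPM or more. For Mef2a these were H2-K1 (0.94), Lair1 (0.93) and Slc11a1 (0.93), a class I histocompatibility heavy chain, an inhibitory collagen receptor and a phagosomal metal transporter. For Cebpa they were Lhfpl2 (0.93), C1qc (0.91), a chain of complement C1q, and Akirin1 (0.90). For Mef2c they were Oxct1 (0.92), a ketone-body enzyme, Raph1 (0.91) and Ptpra (0.90), a receptor-type tyrosine phosphatase. Runx1 ran closest to Egr1 (0.85), an immediate-early factor, Spi1 to Abcf1 (0.93), and Irf8 to Sfxn2 (0.87). With 11 points and so many genes, values of this size are a description of these libraries.

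Around the 7 genes, 0 of 11 tested partners and paralogs passed adjustment in edgeR in any comparison (0%, 0.639% and 0.319% of all genes in the order used above), and DESeq2 called 0. In the same order, 1, 2 and 1 of them had an unadjusted edgeR p under 0.05, against 3.95%, 10.3% and 8.14% of all genes. DESeq2 called 1.70%, 4.25% and 2.14% of all genes in that order. Mef2d, the MEF2 paralog, averaged 60.5 ± 31.2 CPM in the fibril co-culture, 37.7 ± 12.1 CPM in the untreated co-culture and 51.7 ± 16.3 CPM in microglia alone. Cebpb, the C/EBP paralog of inflammatory macrophages, averaged 23.9 ± 9.96 CPM with fibril-loaded neurons, 33.4 ± 24.6 CPM with untreated neurons and 7.06 ± 3.55 CPM alone, with edgeR adjusted p = 0.358 for untreated co-culture and 0.592 for fibril co-culture against microglia alone. Irf5, an IRF of inflammatory macrophages, averaged 158 ± 51.8 CPM with fibril-loaded neurons, 134 ± 18.4 CPM with untreated neurons and 95.6 ± 51.6 CPM alone, with edgeR adjusted p of 0.659 or more. Irf1, an interferon-response factor, averaged 71.1 ± 31.2 CPM with fibril-loaded and 136 ± 40.7 CPM with untreated neurons (log2 fold change −0.94, unadjusted p = 0.0291, edgeR adjusted p = 1).

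Of 27 other microglia and macrophage transcription factors tested, 0 passed adjustment in edgeR in any comparison. In the order used above, 0, 4 and 4 had an unadjusted p under 0.05, against 3.95%, 10.3% and 8.14% of all genes. DESeq2 called 0 for fibril against untreated co-culture and 2 higher and 2 lower for untreated co-culture against microglia alone. It called 1 higher and 1 lower for fibril co-culture against microglia alone. Of all genes, DESeq2 called 1.70%, 4.25% and 2.14% in that order. Maf, a leucine-zipper factor, averaged 159 ± 36.3 CPM with fibril-loaded neurons, 174 ± 24.5 CPM with untreated neurons and 331 ± 54.9 CPM alone. Its ranges were apart between each co-culture and microglia alone, and it did not pass the edgeR test. Against microglia alone, its edgeR adjusted p was 0.116 in the fibril co-culture and 0.206 in the untreated co-culture. DESeq2 called it lower in the fibril (adjusted p = 0.00418) and the untreated co-culture (adjusted p = 0.0285). Ikzf1, a lymphoid and myeloid zinc-finger factor, averaged 59.0 ± 15.9 CPM with fibril-loaded neurons, 55.3 ± 16.3 CPM with untreated neurons and 28.9 ± 7.69 CPM alone, and Id2, an inhibitor of basic helix-loop-helix factors, 380.2 ± 34.6 CPM with fibril-loaded neurons, 309.7 ± 47.0 CPM with untreated neurons and 521 ± 89.5 CPM alone. DESeq2 called Id2 lower in the untreated co-culture than in microglia alone (adjusted p = 0.0239).

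**Figure D4:**
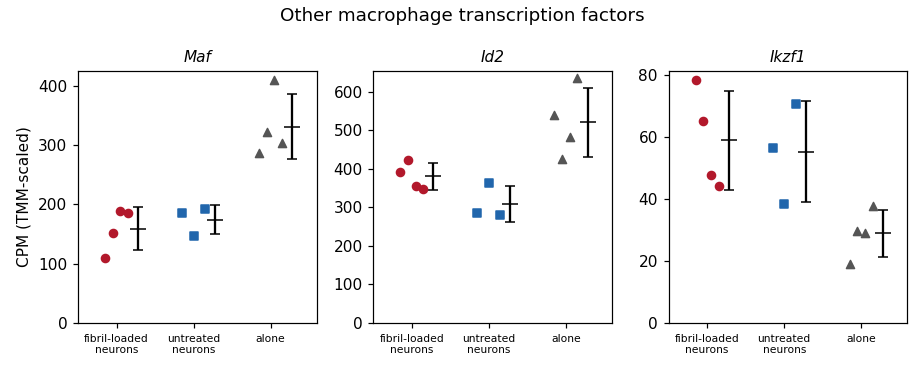
Levels of Maf, Id2 and Ikzf1 in TMM-scaled CPM, 1 point a library, with fibril-loaded neurons, untreated neurons and alone; dash and bar are the mean ± SD (n = 4, 3 and 4). Ikzf1 averages higher, and Maf and Id2 lower, in the co-cultures than in microglia alone, and none passed the adjusted edgeR test; DESeq2 called Maf lower in both co-cultures and Id2 lower in the untreated one.

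Of 22 genes that PU.1 is known to drive in macrophages, 0 passed adjustment in edgeR in any comparison. In the order used above, 1, 5 and 5 had an unadjusted p under 0.05, against 3.95%, 10.3% and 8.14% of all genes. Directions were mixed: against microglia alone, 13 of the 22 were higher and 9 lower in each co-culture. DESeq2 called 0 for fibril against untreated co-culture and 3 higher in each comparison with microglia alone. It called 1.70%, 4.25% and 2.14% of all genes in the order used above. Ncf1, a subunit of the phagocyte oxidase, averaged 778 ± 54.2 CPM in the fibril co-culture, 776 ± 53.2 CPM in the untreated co-culture and 416 ± 158 CPM in microglia alone. Its edgeR adjusted p was 0.194 for fibril co-culture and 0.190 for untreated co-culture against microglia alone. It came to 0.0493 for the fibril co-culture once library 4 from the cultures without neurons was left out. DESeq2 called Ncf1 higher in the fibril (adjusted p = 0.0179) and the untreated co-culture (adjusted p = 0.0215). It also called Itgb2, an integrin chain, higher in both (adjusted p = 0.0355 and 0.0348 for fibril and untreated co-culture), and Ncf4, another oxidase subunit, in the fibril co-culture (adjusted p = 0.0252). Fcgr1, a high-affinity IgG receptor, averaged 106 ± 39.7 CPM with fibril-loaded neurons, 194 ± 78.0 CPM with untreated neurons and 63.4 ± 30.1 CPM alone (edgeR adjusted p = 0.0987 for untreated co-culture against microglia alone). For that comparison of Fcgr1 the adjusted p was 0.0244 with DESeq2 and 0.00359 in edgeR without a low-count filter.

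Among homeostatic microglial genes, 2 of 12 tested rose in edgeR against microglia alone in each co-culture (0.319% of all genes called for the fibril and 0.639% for the untreated co-culture). In fibril against untreated co-culture 0 of 12 passed, 0 had an unadjusted p under 0.05 and DESeq2 called 0 (0%, 3.95% and 1.70% of all genes). Cx3cr1, the fractalkine receptor, averaged 1858 ± 521 CPM in the fibril co-culture, 1880.1 ± 312 CPM in the untreated co-culture and 602 ± 158 CPM in microglia alone, with log2 fold changes against microglia alone of 1.63 for the fibril co-culture (edgeR adjusted p = 0.00527) and 1.64 for the untreated co-culture (edgeR adjusted p = 0.00613). Without the library of fewest genes in each group, the second of these was 1.57 with an adjusted p of 0.0538. Olfml3, a secreted glycoprotein, had 79.1, 71.2, 29.8 and 42.0 CPM in the fibril co-culture, 29.9, 73.4 and 25.5 CPM in the untreated co-culture and 1.57, 3.27, 0 and 0 CPM in microglia alone. Its edgeR adjusted p was 0.0193 for fibril co-culture and 0.0268 for untreated co-culture against microglia alone. For the fibril co-culture it was 0.0648 without library 2 of that group, 0.0563 without library 1, and 0.0642 without library 1 of microglia alone. For the untreated co-culture it was 0.0755 without its library 2 and 0.0778 without library 1 of microglia alone. Siglech was not analysed here. Tmem119 and P2ry12, which with Sall1 mark resting microglia, were low, at 23.5 ± 14.7 and 6.88 ± 9.62 CPM in the fibril co-culture, 40.9 ± 31.8 and 9.70 ± 6.93 CPM in the untreated co-culture, and 9.32 ± 11.97 and 2.28 ± 3.99 CPM in microglia alone.

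Among receptors and ligands that act upstream of these factors, 1 of 7 tested rose in edgeR in the untreated co-culture against microglia alone (0.639% of all genes called). In the other comparisons 0 of 7 passed in edgeR or DESeq2. For fibril co-culture against microglia alone 2 had an unadjusted p under 0.05 (8.14% of all genes). For fibril against untreated co-culture 0 did (3.95% of all genes). The gene that rose was Csf2rb, the common β chain of the GM-CSF receptor. It averaged 403 ± 91.8 CPM in the fibril co-culture, 562 ± 186 CPM in the untreated co-culture and 205 ± 67.5 CPM in microglia alone. Its log2 fold change for untreated co-culture against microglia alone was 1.45 (edgeR adjusted p = 0.0422). That adjusted p was between 0.0633 and 0.103 without any 1 library of microglia alone, 0.229 without library 1 and 0.0869 without library 3 of the untreated co-culture. It was 0.123 with marker scaling, 0.112 in a fit of the 2 groups alone, 0.0582 with a minimum mean of 5 CPM and 0.190 without the library of fewest genes in each group. Csf1r, the receptor on which microglial survival depends and a PU.1 target, averaged 1386 ± 247 CPM with fibril-loaded neurons, 1632 ± 75.2 CPM with untreated neurons and 1429 ± 440.0 CPM alone (edgeR adjusted p = 0.978 or more). Tgfbr1, the TGF-β receptor kinase upstream of SALL1, averaged 91.0 ± 41.3 CPM with fibril-loaded neurons, 132 ± 11.4 CPM with untreated neurons and 47.9 ± 28.5 CPM alone, with edgeR adjusted p = 0.201 for untreated co-culture and 0.600 for fibril co-culture against microglia alone.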

How the data were processed

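The 11 microglia libraries were made with a kit that reads mRNA 3′ ends, per the labels. Per the submitters' processing notes, STAR, Partek and DESeq2 were used with build mm10; versions are not given in the sources used here. The authors deposited raw counts per gene symbol, used for all tests but the limma one, and a normalized table, treated as a score: 99.1% to 100% of the deposited scores in a library lay within 0.51 of the count divided by 1 factor per library.

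Groups came from the labels. Counts were filtered with filterByExpr (11276 of 16934 genes kept; 2828 had no count), scaled by TMM and tested with glmQLFit and glmQLFTest of edgeR 4.0.16 in R 4.3.3, all 3 groups in 1 fit, with Benjamini-Hochberg adjustment over all genes. Confidence intervals are 95%. They come from the fit and cover the spread between libraries. Depth was 8253070 to 16802451 counts, and the floor of 3 counts covers counting error only. RefSeq symbols matched 16916 of 16934 genes.

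The 7 genes and the lists were chosen with earlier results of these data known. Named besides the 7 were, for each, the 3 genes of highest correlation; from each list and comparison up to 3 genes of lowest p with a mean of at least 10 CPM; and a few partners, receptors and markers listed by name. Alternatives were DESeq2 1.42.0, limma 3.58.1 on log2(normalized score + 1), other scalings and filters, fits of 2 groups, exact permutation, leaving out libraries and a block of facility numbers. The scripts were tested on simulated data. Of the genes the naming rule takes, 1 is not reported here.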

Additional observations from a re-analysis of the deposited data

Results flagged for a closer look

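Of 94 groups of 4 libraries checked with Dixon's test, 2 held a library far from the others, and chance marks about 1 group in 20. P2ry12, a purinergic receptor of resting microglia, was at 8.24 CPM in library 3 of microglia alone, against 0 to 0.893 CPM in the other 3 libraries of that group. The summed neutrophil and monocyte markers were at 2.58 CPM in library 2 of microglia alone, against 0 CPM in the other 3. In the groups of 4 libraries, levels of the 7 transcription factors held no such library. The untreated co-culture, with 3 libraries, was not checked.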

How the results depend on the processing

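The labels give no replicate numbers, but facility numbers in the titles step by 7 within each group. Libraries with neighbouring numbers were set as a replicate block, a choice made after seeing the data. What these numbers mark is not stated. Over 5763 genes, the deviations from group means correlated at −0.066 to 0.113 in the 10 pairs of neighbours, 2 of them over 0.1, against −0.114 to 0.104 in the 30 other pairs, and 5 of 11 libraries correlated best with their own set. The Rn45s share stood in the same order over the 3 full sets in each group (17.01, 11.72 and 10.97% in the fibril co-culture, 15.72, 11.51 and 10.72% in the untreated co-culture, 20.09, 18.66 and 14% in microglia alone). The remaining set, without an untreated library, held 11.34% in the fibril co-culture and 24.8% in microglia alone. It was the highest set in microglia alone but not in the fibril co-culture. With the block, 0 of the 7 genes were called; Cebpa came to 0.0294 for fibril against untreated co-culture and Sall1 to −0.49 for untreated co-culture against microglia alone, both turned; and genes called higher and lower were 53 and 13 for fibril co-culture against microglia alone, 73 and 22 for untreated co-culture against microglia alone, and 0 and 0 for fibril against untreated co-culture.

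Of 228 values of the 7 genes in other settings, 212 kept their direction and side of the threshold, 5 newly passed and 11 turned direction; with 1 library left out, 17 of 154 turned. In untreated co-culture against microglia alone, members called higher and lower were 2 and 1 with DESeq2, 1 higher without a low-count filter and 1 lower with microglia-marker scaling. The turned values, as log2 fold changes, follow, and the cause was not tested. Irf8 came to −0.15 with marker scaling and −0.10 without the libraries of fewest genes (fibril against alone), −0.19 without those libraries (fibril against untreated), and 0.0876 with library totals and 0.0864 without those libraries (untreated against alone). Spi1 came to −0.16 with marker scaling and −0.10 without those libraries (fibril against alone). Sall1 came to −0.0705 in the permutation setting and −0.56 with limma (untreated against alone), and could not be fitted with a minimum mean of 5 CPM. Leaving out the libraries of fewest genes was chosen after seeing the data.

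With 1 library left out, Cebpa ranged over −0.44 to 0.34, Irf8 −0.0767 to 0.31, Sall1 −2.50 to 0.24, Irf2 −0.0527 to 0.79 and Tmem119 −1.20 to 0.0061 for fibril against untreated co-culture. Irf8 ranged over −0.26 to 0.11 and Sall1 −1.13 to 0.86 for untreated co-culture, and Irf8 −0.0803 to 0.16 and Spi1 −0.0712 to 0.30 for fibril co-culture, against microglia alone.

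Genes called over the whole table, higher and lower, were 30 and 6 for fibril co-culture against microglia alone, and became 129 and 107 with DESeq2, 114 and 50 without a filter, 12 lower with marker scaling and 3 lower with a minimum of 5 CPM; leaving out 1 library gave 21 to 39 and 2 to 5. For fibril against untreated co-culture, 0 and 0 became 149 and 38 with DESeq2, 5 higher without a filter, 1 higher without the libraries of fewest genes, and 0 to 1 and 0 to 1 with 1 library left out. For untreated co-culture against microglia alone, 52 and 20 became 171 and 297 with DESeq2, 155 and 79 without a filter, 32 and 53 with marker scaling, 28 and 13 with 2 groups alone, 21 and 8 without the libraries of fewest genes, 12 lower with a minimum of 5 CPM, and 25 to 62 and 4 to 21 with 1 library left out. Marker scaling moved the share of genes higher to 34.7% against microglia alone in the untreated co-culture and 37.4% in the fibril co-culture, against 47.7% and 47.9% in the main scaling. The median half-width of the unadjusted 95% intervals of the 7 genes was 0.66 on the log2 scale.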

Other observations

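Among genes of other cell types, the border-associated macrophage markers did not run together. Mrc1, the mannose receptor, averaged 157 CPM in the fibril co-culture, 194 CPM in the untreated co-culture and 317 CPM in microglia alone. Pf4, a chemokine gene, averaged 554 CPM in the fibril co-culture, 606 CPM in the untreated co-culture and 241 CPM in microglia alone.

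Summed astrocyte markers (10 genes) were 67.0 ± 45.2 CPM in the fibril co-culture, 56.9 ± 41.9 CPM in the untreated co-culture and 34.4 ± 15.6 CPM in microglia alone (SD, n = 4, 3 and 4). Summed oligodendrocyte-lineage markers (10 genes) were 241 ± 81.6 CPM in the fibril co-culture, 298 ± 28.5 CPM in the untreated co-culture and 226 ± 55.1 CPM in microglia alone. The ranges of both sums overlapped between each co-culture and microglia alone. The ribosomal RNA gene Rn45s took 10.97% to 17.01% of counts in the fibril co-culture, 10.72% to 15.72% in the untreated co-culture and 14% to 24.8% in microglia alone.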
